A study of Mus musculus with 9 samples.

Results

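The Skint genes (selection and upkeep of intraepithelial T cells) were followed here as a set of 10 listed members, Skint1 to Skint10, matched by gene name among the 49585 genes of each deposited table. All 10 members were found and all 10 passed the filter on low counts, which left 14415 genes. The set was proposed from the difference between BALB/c and C57BL/6 skin in these same libraries. The members were thus chosen by their exon counts in those 6 libraries, and that difference is described below without a test. The comparison with the libraries whose label reads IL-6 KO was tested.

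Total RNA of mouse skin was sequenced in 9 libraries, 3 in each of 3 groups. The groups were wild-type C57BL/6, wild-type BALB/c, and mice of the C57BL/6 strain with genotype IL-6 -/-, lacking the cytokine interleukin 6 throughout the body according to the label. All mice came at 4 to 5 weeks of age, were kept for 2 weeks, were shaved on day 0 at about 6 weeks and gave skin on day 8 after 7 days without treatment, so shaving was common to all groups. In the protocol the mice number 3 of C57BL/6, 3 of BALB/c and 6 lacking IL-6. No label ties a library to 1 animal, and the spread behind each p-value may therefore be technical.

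Skint proteins are membrane proteins of the butyrophilin-like family with immunoglobulin-like domains outside the cell, made by keratinocytes of the epidermis and by thymic epithelium. Skint1, the founding member, is needed in the mouse thymus for the maturation of the gamma delta T cells that settle in the epidermis as dendritic epidermal T cells. Those cells carry one nearly invariant receptor, built from the Tcrg-V5 and Trdv4 segments, and survey keratinocytes for stress and wounding. The other members resemble Skint1 in sequence, and the functions of most of them are less well defined.

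Exon reads totalled 6083876 to 6882193 per library in C57BL/6, 6115739 to 6242332 in BALB/c and 3843953 to 4476346 in the IL-6 KO-labelled libraries. Exon reads of Il6 numbered 2, 1 and 0 for C57BL/6 replicates 1 to 3, 0, 2 and 0 for BALB/c, and 6, 24 and 1 for the IL-6 KO label. The targeted gene was thus not lower under the knockout label, and counts per gene do not show which exons were read. Eif2s3y, a Y-linked gene, had a mean of 59.4 CPM (reads per 1000000 of the scaled library size) for C57BL/6, 61.9 for BALB/c and 61.0 under the IL-6 KO label. Xist, an X-linked RNA of female cells, had 130 reads in BALB/c replicate 2 and at most 5 in any other library. The epidermal keratins that mark Skint-expressing tissue were abundant throughout: Krt5 averaged 3654 CPM in C57BL/6, 3353 in BALB/c and 2724 under the IL-6 KO label. Thymus transcripts were nearly absent, with 3.52 to 6.55 summed CPM for 12 thymus genes in any library and no read of Rag2, a recombinase subunit of immature lymphocytes.

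The 10 members lie in 1 block of chromosome 4 that spans 2.08 Mb in GRCm38 (111919392 to 113999503). From the low-coordinate end the order is Skint8, Skint7, Skint1, Skint4, Skint3, Skint9, Skint2, Skint10, Skint6 and Skint5, with 6 on the plus strand and 4 on the minus strand (Skint9, Skint10, Skint6 and Skint5). Skint6 and Skint5 are by far the longest, at 482 and 522 kb with 51 and 61 annotated exons, whereas Skint7 covers 15.3 kb.

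The sequences around the transcription starts show how the members fall into related pairs, and they are printed for 3 pairs whose levels moved together or apart between strains. Each window, from RefSeq on GRCm38.p6, runs 5′ to 3′ on the gene's strand from 250 bases before to 50 bases after the start; all 10 members matched this table. Capitals mark a run of letters that both windows of a pair share exactly. In Skint4, Skint3, Skint6 and Skint5 it is AGTACTTGAGTAAT. In Skint9 and Skint10 it is CTAATTTGAATTATGCAGT.
Skint4 (second annotated start, chr4:112081220-112081519, plus strand): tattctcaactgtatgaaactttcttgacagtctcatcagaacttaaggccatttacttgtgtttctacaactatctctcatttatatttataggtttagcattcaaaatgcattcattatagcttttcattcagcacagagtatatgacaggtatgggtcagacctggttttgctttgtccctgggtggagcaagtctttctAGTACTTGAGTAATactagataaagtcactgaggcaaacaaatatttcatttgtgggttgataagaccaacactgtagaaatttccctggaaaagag
Skint3 (chr4:112231995-112232294, plus strand): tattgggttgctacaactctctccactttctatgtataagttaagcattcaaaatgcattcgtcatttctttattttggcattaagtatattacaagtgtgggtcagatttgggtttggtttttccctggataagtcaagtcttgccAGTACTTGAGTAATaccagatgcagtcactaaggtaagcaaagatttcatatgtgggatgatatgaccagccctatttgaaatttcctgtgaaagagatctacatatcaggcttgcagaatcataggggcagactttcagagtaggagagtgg
Skint9 (chr4:112433936-112434235, minus strand): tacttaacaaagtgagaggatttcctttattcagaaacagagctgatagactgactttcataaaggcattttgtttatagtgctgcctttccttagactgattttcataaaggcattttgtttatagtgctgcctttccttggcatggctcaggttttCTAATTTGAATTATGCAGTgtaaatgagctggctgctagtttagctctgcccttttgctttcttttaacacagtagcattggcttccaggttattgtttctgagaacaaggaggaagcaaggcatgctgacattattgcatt
Skint10 (chr4:112774812-112775111, minus strand): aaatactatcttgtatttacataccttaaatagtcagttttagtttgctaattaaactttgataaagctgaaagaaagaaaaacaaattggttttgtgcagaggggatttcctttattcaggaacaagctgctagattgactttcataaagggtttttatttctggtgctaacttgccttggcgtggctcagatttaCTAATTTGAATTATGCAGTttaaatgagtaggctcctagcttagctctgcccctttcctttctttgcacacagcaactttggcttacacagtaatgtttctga
Skint6 (chr4:113286924-113287223, minus strand): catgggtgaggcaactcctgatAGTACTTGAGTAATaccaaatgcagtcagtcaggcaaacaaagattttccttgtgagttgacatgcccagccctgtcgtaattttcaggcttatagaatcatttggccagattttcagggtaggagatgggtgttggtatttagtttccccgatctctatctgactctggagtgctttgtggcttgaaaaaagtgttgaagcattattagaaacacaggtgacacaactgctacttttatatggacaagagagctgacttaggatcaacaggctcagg
Skint5 (chr4:113999454-113999753, minus strand): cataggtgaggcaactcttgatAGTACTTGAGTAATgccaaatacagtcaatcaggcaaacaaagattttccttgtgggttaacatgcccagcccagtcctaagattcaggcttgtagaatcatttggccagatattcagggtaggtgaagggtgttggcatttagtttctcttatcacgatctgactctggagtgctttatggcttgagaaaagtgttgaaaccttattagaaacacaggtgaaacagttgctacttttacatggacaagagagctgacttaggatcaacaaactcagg

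The 14-letter word AGTACTTGAGTAAT was present in the windows of 5 members, Skint1, Skint4, Skint3, Skint6 and Skint5, and in none of the other windows among 32851 of the same length searched on both strands, a share of 0.0152%. It starts 231 bases before the start in Skint1, 47 in Skint4 (second annotated start), 103 in Skint3 and 228 in both Skint6 and Skint5. The window at the first annotated start of Skint4 lacks it. The 19-letter word of Skint9 and Skint10 was in those 2 windows alone (0.00609%), 92 and 53 bases before the start. The Skint6 and Skint5 windows were identical at 269 of 300 aligned bases (89.7%), Skint4 (second start) and Skint3 at 193 of 246 (78.5%), and Skint9 and Skint10 at 138 of 168 (82.1%). The first Skint4 window aligned with Skint3 over only 26 bases. These words were found by comparing the members with each other, and no factor is assigned to them.

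The likeness continued in the transcripts. Skint7 and Skint8 had the highest identity of any pair, 94.99% over 899 bases. Skint9 and Skint10 had 83.5% over 1377 bases, Skint2 and Skint4 84.3% over 823 bases, and Skint5 and Skint6 79.8% over 3312 bases, the longest alignment. Even so, 99.0% to 99.9% of the family's exon reads in each library were counted by the authors as uniquely mapped. Skint8 had the lowest unique share, from 92.0% to 94.8% by group, so its values are the least certain of the set.

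In C57BL/6 skin, Skint9 was the most abundant member per kb of exon length, at 34.4 CPM per kb. Skint10 followed at 11.8 CPM per kb, and the 2 genes did not overlap across libraries. Skint3 (8.42), Skint7 (8.11), Skint5 (5.93), Skint6 (5.81), Skint4 (5.17) and Skint1 (2.62 CPM per kb) came next, and each overlapped its neighbour in this order, Skint3 also overlapping Skint10. Skint2 (1.18) and Skint8 (1.13 CPM per kb) were lowest, and Skint2 did not overlap Skint1. By this measure the founding member was among the weaker ones in whole skin, where bulk RNA cannot separate fewer expressing cells from less RNA per cell. The deposited exon length is 3014 bases for Skint1, 3738 for Skint10 and 1372 for Skint9, while the transcripts compared above had 1260, 1376 and 1372. This order and the family shares given below rest on the deposited lengths, and no order by transcript length was computed. The low place of Skint1 and the lead of Skint9 over Skint10 may therefore change with the length used.

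The BALB/c libraries held almost no reads of 3 adjacent members, Skint4, Skint3 and Skint9, which together span 362 kb in the middle of the cluster. Skint3 had 242, 278 and 100 exon reads in C57BL/6 replicates 1 to 3, 0 in each BALB/c library, and 50, 275 and 78 under the IL-6 KO label. Skint9 had 342, 382 and 175 reads in C57BL/6, 0 in each BALB/c library, and 32, 250 and 65 under the IL-6 KO label. Skint4 had 147, 209 and 76 reads in C57BL/6, 0, 1 and 2 in BALB/c, and 18, 116 and 34 under the IL-6 KO label. All 3 genes were thus read in each library of the C57BL/6 strain, with or without the IL-6 label. Reads of all groups were mapped to GRCm38, and whether BALB/c sequence differs from it in this stretch was not tested.

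The introns of the 3 genes showed the same gap. Skint3 introns had 111 reads over the C57BL/6 libraries and 0 over BALB/c, Skint9 introns 296 and 1, and Skint4 introns 61 and 2. Against a floor of 3 reads over the BALB/c group, Skint3 exon signal was at least 205-fold lower and Skint9 at least 297-fold lower, while the exon ratio for Skint4 was 143 (95% exact counting interval 48.6 to 696, counting error only). A count of 0 over the 3 BALB/c libraries allows up to 0.162 CPM. Of all 14415 genes tested, 6 (0.0416%) had at most 3 BALB/c exon reads and at least 20 CPM in C57BL/6, limits chosen after the values were seen, and 3 of those 6 were Skint3, Skint4 and Skint9. The others were AI506816, Krt27, a keratin of the hair follicle, and RP24-346O11.2.

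**Figure D1:**
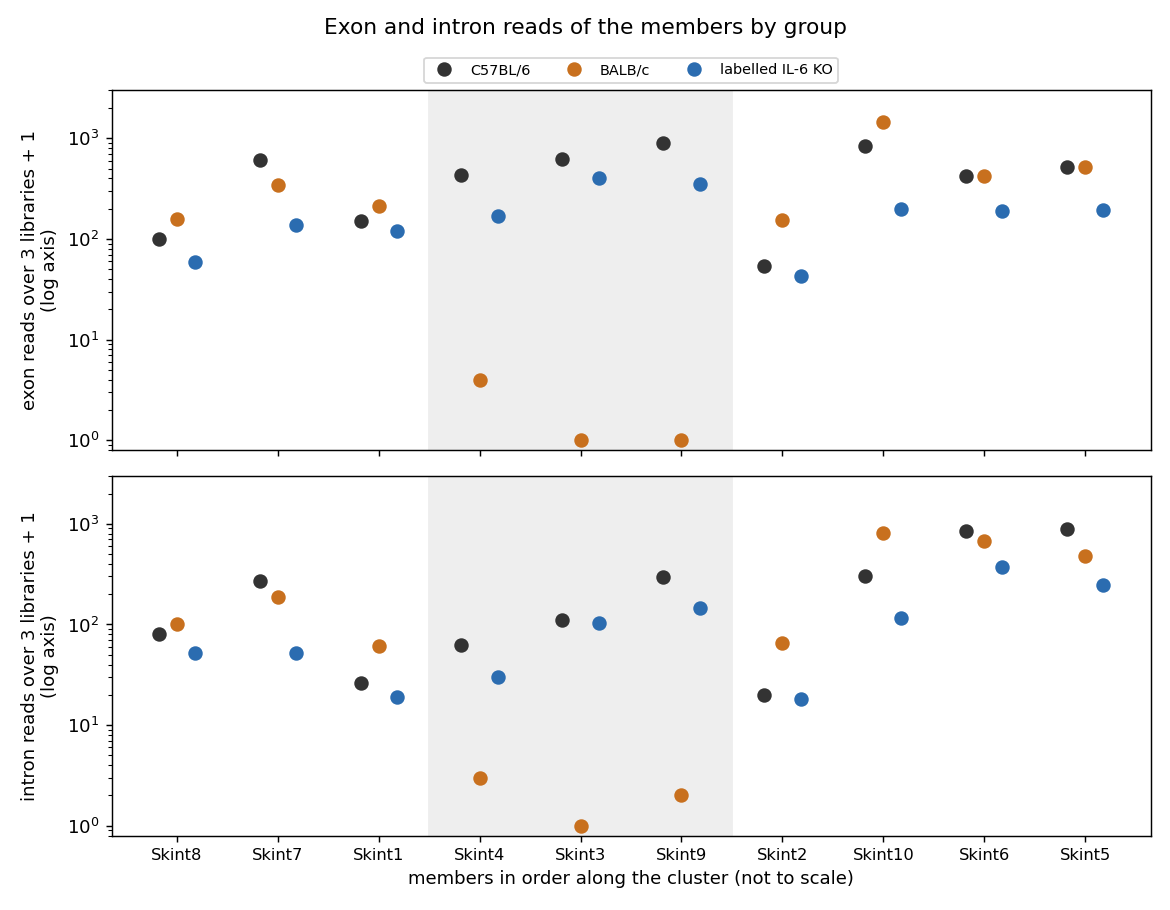
Exon reads (top) and intron reads (bottom) of each member summed over the 3 libraries of a group, plus 1, on a log axis, with the members in their order along the cluster and the Skint4 to Skint9 stretch shaded. In both panels the BALB/c points of Skint4, Skint3 and Skint9 lie at 0 to 3 reads, while the flanking members have at least 60 reads in BALB/c.

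The genes on either side of this stretch were read in BALB/c. Skint1, which precedes Skint4, had 44, 73 and 33 exon reads in C57BL/6 and 59, 65 and 87 in BALB/c, at 7.91 ± 2.58 and 11.4 ± 2.42 CPM, and the libraries overlapped. Skint2, which follows Skint9, had 22, 19 and 12 reads in C57BL/6 and 38, 56 and 58 in BALB/c, at 2.81 ± 0.576 and 8.24 ± 1.91 CPM (SD, n = 3). Every BALB/c library was above every C57BL/6 library for Skint2. From the end of Skint1 to the start of Skint2 lie 528 kb, which also hold 4 annotated genes outside the family, and none of them had an exon read in any library. One of these 4, the unprocessed pseudogene Gm12819 between Skint9 and Skint2 (112512740 to 112521472), had 10, 11 and 6 intron reads in C57BL/6, 0 in each BALB/c library, and 1, 11 and 8 under the IL-6 KO label. The gap in reads therefore reached past Skint9 on the side of Skint2.

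Of the 10 members, 4 had all 3 BALB/c libraries below all 3 C57BL/6 libraries in exon CPM (Skint7, Skint4, Skint3 and Skint9). Among all genes tested 15.6% did so, a share from the contrast that chose the set. Members with all BALB/c libraries above numbered 3 (Skint8, Skint2 and Skint10), beside 14.6% of all genes, and Skint1, Skint6 and Skint5 overlapped. Skint10 stood at 45.4, 53.1 and 34.3 CPM in C57BL/6 and 72.3, 84.6 and 81.2 CPM in BALB/c, a fitted ratio of 1.79. Skint2 had the highest fitted ratio, 2.90, and Skint8 had 1.59, from 5.28 ± 1.24 to 8.44 ± 0.509 CPM. Skint7 stood at 37.6, 30.1 and 29.5 CPM in C57BL/6 and 19.2, 17.1 and 19.6 CPM in BALB/c, 1.74-fold lower. Skint6 and Skint5 had fitted ratios of 1.02 each, with 22.2 ± 7.63 and 22.7 ± 1.60 CPM for Skint6 and 27.2 ± 10.2 and 27.8 ± 3.93 CPM for Skint5.

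The 3 printed pairs were picked with these strain values known, so likeness and strain pattern are only set side by side. Skint4 and Skint3 both had almost no BALB/c reads, and Skint6 and Skint5 both had a fitted ratio of 1.02. The members of each of these pairs are also neighbours in the cluster. Skint9 and Skint10 share the 19-letter word printed above, but Skint9 had no BALB/c exon read while Skint10 was the most abundant BALB/c member. Skint3 and Skint4 share AGTACTTGAGTAAT with Skint1, Skint6 and Skint5, which all had BALB/c reads. The Skint2 window was identical to that of Skint3 at 104 of 132 aligned bases (78.8%). It matched the second Skint4 window at 61 of 72 (84.7%), but Skint2 was higher in BALB/c. Likeness and strain pattern also parted in Skint7 and Skint8, whose windows are not printed. Those windows share a run of 51 letters and were identical at 112 of 132 aligned bases (84.8%). Every BALB/c library was below every C57BL/6 library for Skint7 and above every one for Skint8.

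**Figure D2:**
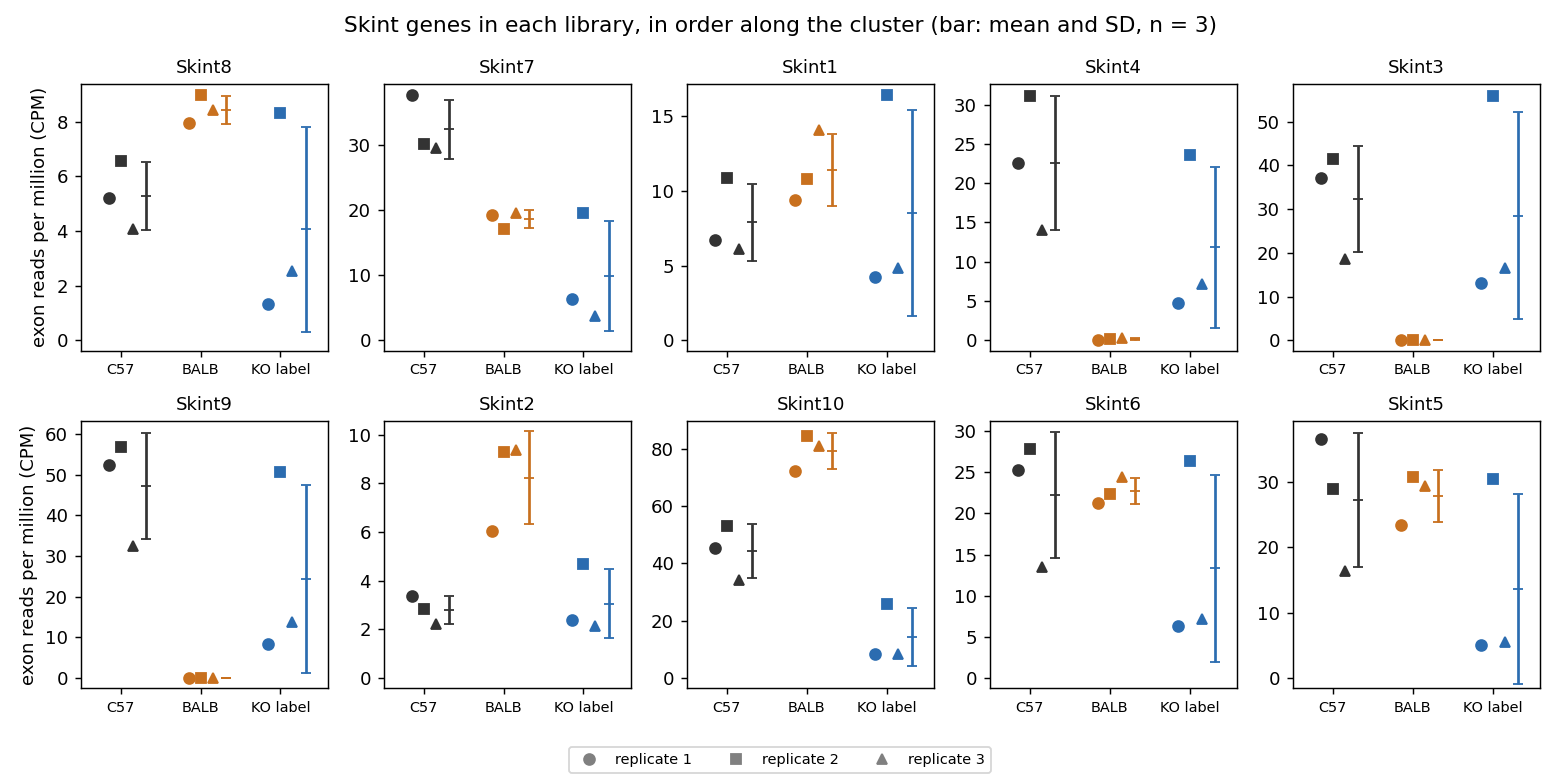
Exon CPM of each member in each of the 9 libraries, on a linear axis of its own per gene, with the mean and SD of each group beside the points (n = 3). Skint4, Skint3 and Skint9 sit at or near 0 in BALB/c, Skint2 and Skint10 are higher in all BALB/c libraries than in all C57BL/6 libraries, and replicate 2 is the highest of the IL-6 KO-labelled libraries for each member.

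Intron and exon reads moved apart in a few members. Exon reads of Skint5 numbered 520 for C57BL/6 and 514 for BALB/c, but its intron reads 897 and 473, so introns made up 63.3% (95% exact interval 60.7 to 65.8) and 47.9% (44.8 to 51.1) of its reads, intervals that cover counting error only. All 3 BALB/c libraries were below all C57BL/6 libraries in Skint5 intron CPM. Skint10 had 304 intron reads in C57BL/6 and 811 in BALB/c, a ratio of rates of 2.69 beside 1.76 for its exons. Skint6 had 842 and 671 intron reads, and introns were 66.5% and 61.5% of its reads. Skint11, a family gene beyond the listed members (chromosome 4, 114163384 to 114245028), showed the same kind of difference. It had 193 exon and 509 intron reads in C57BL/6, 220 and 41 in BALB/c, and 66 and 205 under the IL-6 KO label, so introns were 72.5%, 15.7% and 75.6% of its reads.

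The block holds 12 annotated genes that are not members, and 1 of them, Gm12813, had exon reads. This unprocessed pseudogene between Skint6 and Skint5 (113368187 to 113394359) had 4, 7 and 12 exon reads in BALB/c and 0 in each of the other 6 libraries, the reverse of Skint3 and Skint9. Outside the block, 23 genes lie within 1 Mb and 8 of them had at least 10 exon reads. Slc5a9, a sugar transporter and the nearest expressed gene before Skint8, had a log2 difference of 0.24 ± 0.40 (SE) in BALB/c (edgeR adjusted p = 0.789). The corresponding value for Skint11, on the other side, was 0.22 ± 0.44 (adjusted p = 0.829).

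Without Skint9 and its neighbours, Skint10 led the family in BALB/c at 21.2 CPM per kb and did not overlap Skint5 at 6.06 CPM per kb. Skint5 overlapped Skint6 (5.94), Skint6 did not overlap Skint7 (4.67), and Skint7, Skint1 (3.79) and Skint2 (3.46 CPM per kb) overlapped in turn. As a share of the family's summed CPM per kb, Skint9 held 40.6% ± 0.580 in C57BL/6 and 0 in BALB/c, and Skint10 held 14.2% ± 1.29 and 45.2% ± 1.49. Shares sum to a whole, so the lack of reads of 3 members raises all others. The summed CPM of the 7 other members was 160.1, 160.1 and 106.0 in C57BL/6 and 159.5, 183.9 and 186.6 in BALB/c. Those sums overlap narrowly, with BALB/c replicate 1 just below the 2 higher C57BL/6 libraries.

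**Figure D3:**
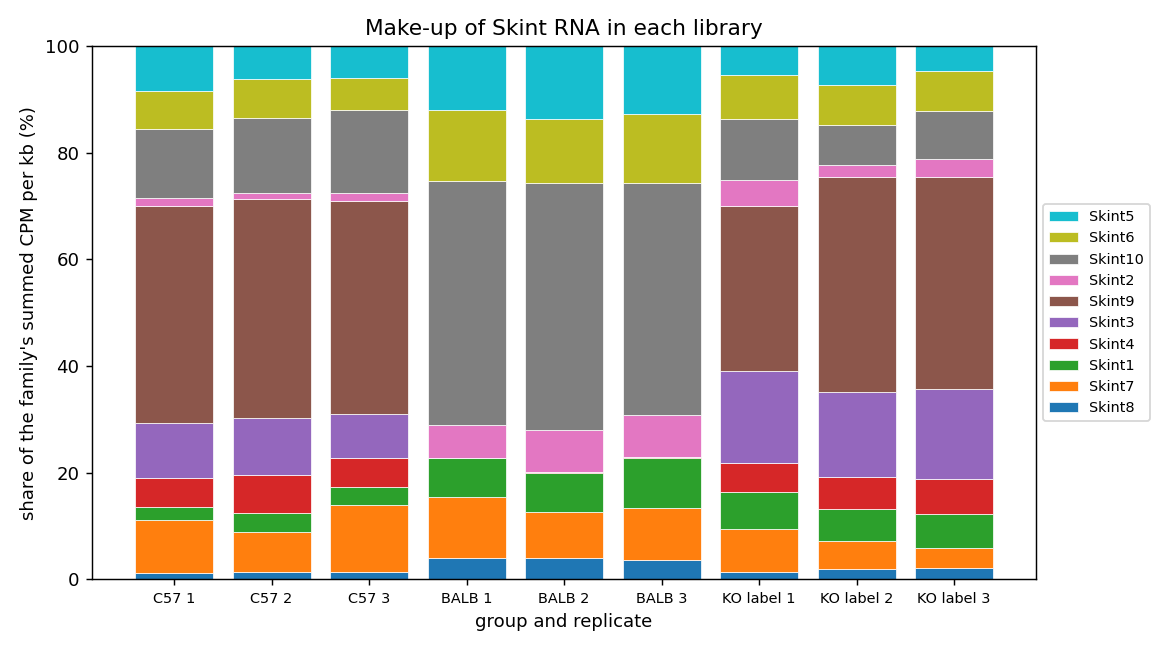
Share of each member in the family's summed CPM per kb of exon length, one bar per library, stacked in the order along the cluster. Skint9 holds 40.6% on average in C57BL/6 and none in BALB/c, where Skint10 holds 45.2%, and Skint3 holds a larger share in each library labelled IL-6 KO than in each C57BL/6 library.

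Under the IL-6 KO label, Skint7 and Skint10 were 3.23-fold and 3.07-fold lower than in C57BL/6, and the other 8 members did not pass the test. Skint7 stood at 37.6, 30.1 and 29.5 CPM in C57BL/6 and 6.33, 19.5 and 3.81 CPM under the IL-6 KO label, without overlap. Its log2 difference was -1.69 ± 0.45 (SE, edgeR quasi-likelihood test, adjusted p = 0.0178). Skint10 stood at 45.4, 53.1 and 34.3 CPM in C57BL/6 and 8.44, 25.8 and 8.47 CPM under the label, also without overlap, with a log2 difference of -1.62 ± 0.38 (adjusted p = 0.0102). Thus 2 of 10 members were called lower and 0 higher, where 16.0% of all genes tested were called lower and 35.2% were called in either direction (2767 higher and 2301 lower, or 3489 and 1661 without TMM scaling). At an unadjusted p under 0.05 edgeR gave the same 2 and 0, as DESeq2 did after adjustment. That share of members is near the background. The same 2 members were the ones with all labelled libraries below C57BL/6, as were 23.0% of all genes, and no member had them all above (24.6%). This comparison uses the same C57BL/6 libraries as the strain comparison, so the values are set side by side only.

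Replicate 2 of the IL-6 KO-labelled libraries stood apart from the other 2. The summed CPM of the 10 members was 60.4, 261.9 and 72.0 in replicates 1 to 3, beside 272.3, 289.4 and 171.0 in C57BL/6. Replicate 2 was the highest of its group for each member, so leaving it out necessarily lowers the group. Without replicate 2, 8 of 10 members were called lower, all but Skint1 and Skint2, beside 21.8% of all genes tested. The log2 differences of Skint7 and Skint10 were then -2.69 and -2.39. Skint5 came next at -2.37, compared with -0.97 ± 0.59 (adjusted p = 0.227) with all libraries. Without replicate 1 under the IL-6 KO label, or without C57BL/6 replicate 1, Skint7 lost its call and Skint10 alone was called, beside 10.6% and 12.7% of all genes. Skint10 was called lower under all 16 alternative settings.

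**Figure D4:**
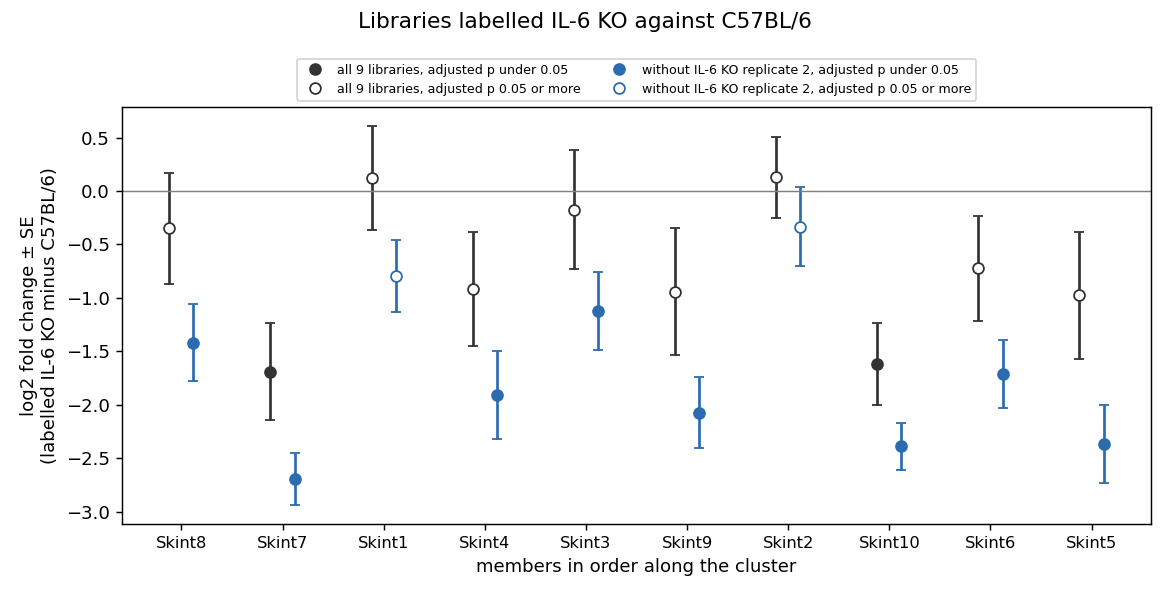
Log2 difference ± SE of the IL-6 KO label from C57BL/6 for each member, with all 9 libraries and without replicate 2 of the IL-6 KO label, filled where the adjusted p is under 0.05. With all libraries Skint7 and Skint10 are filled, and without replicate 2 all but Skint1 and Skint2 are.

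The 3 members with almost no BALB/c reads did not pass the test under the IL-6 KO label. Skint9 stood at 52.5, 56.8 and 32.4 CPM in C57BL/6 and 8.44, 50.8 and 13.8 CPM under the label (log2 -0.94 ± 0.59, adjusted p = 0.251). Skint4 had a log2 difference of -0.92 ± 0.54 (adjusted p = 0.209) and Skint3 one of -0.17 ± 0.56 (adjusted p = 0.833). Their libraries overlapped with C57BL/6 in each case.

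Skint1 and Skint2 had the least difference in this comparison, at 0.12 ± 0.49 (adjusted p = 0.869) and 0.13 ± 0.38 (adjusted p = 0.818) on the log2 scale. Skint1 stood at 6.75, 10.9 and 6.11 CPM in C57BL/6 and 4.22, 16.5 and 4.87 CPM under the IL-6 KO label, so replicate 2 was above and the other 2 below the C57BL/6 range. Skint6 (-0.72 ± 0.49, adjusted p = 0.272) and Skint8 (-0.35 ± 0.52, adjusted p = 0.632) also missed the threshold. The median over the 10 members was -0.82, beside 0.01 over all genes tested.

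The make-up of the family within each library was also compared. With 3 against 3 libraries no share could reach a p under 0.05, so the test cannot tell a difference from none. Skint3 held 17.2%, 15.9% and 17.0% of the family's summed CPM per kb under the IL-6 KO label, against 10.3%, 10.7% and 8.15% in C57BL/6. Skint1 held 7.02%, 5.97% and 6.38% against 2.38%, 3.57% and 3.43%. Skint10 held less, 11.3%, 7.54% and 8.95% against 12.9%, 14.1% and 15.5%. The shares of Skint3, Skint1, Skint2 and Skint6 were higher and that of Skint10 lower in all 3 libraries. Each had an exact two-sided permutation p of 0.1, the smallest that 3 against 3 libraries allow (0.2 after adjustment over 10 tests). Shares sum to a whole, so a lower share of some members raises others. In CPM, Skint3, Skint1, Skint2 and Skint6 overlapped with C57BL/6, and Skint6 averaged 13.3 CPM under the label against 22.2 in C57BL/6. This look at shares was added after the values were seen. Skint9 held 36.97% ± 5.32 and 40.6% ± 0.580, which overlapped. In order per kb, Skint9 (17.7 CPM per kb) still led, followed by Skint3 (7.42) and Skint10 (3.81), and all neighbours in the order overlapped.

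Transcripts of other skin compartments also differed under this label, some with the family and some against it. The summed CPM of 27 genes of the suprabasal epidermis, the differentiating layers, was 17180, 38098 and 18900 in replicates 1 to 3 under the IL-6 KO label and 20533 to 32865 in C57BL/6. For 14 basal epidermis genes it was 5869, 9948 and 5833, against 9195 to 13790 in C57BL/6. Replicate 2 was therefore the highest of its group for Skint genes and for both epidermal lists. Per 1000 CPM of suprabasal genes, the family had 3.52, 6.87 and 3.81 CPM under the label and 8.33 to 10.3 in C57BL/6, without overlap. Per 1000 CPM of basal genes it had 10.3, 26.3 and 12.3 against 18.2 to 29.6, which overlap. Hair shaft and matrix genes, 28 in all, summed to 82394, 19805 and 58787 CPM under the IL-6 KO label and to 53.4 to 822 CPM in C57BL/6. All 28 were called higher, beside 19.2% of all genes tested. Skeletal muscle genes were called lower in 18 of 20 cases, beside 16.0% of all genes tested. White adipocyte genes summed to 1866, 3713 and 1311 CPM in replicates 1 to 3 under the label (3717 to 5471 in C57BL/6) and Langerhans cell genes to 907, 1356 and 883 CPM (1252 to 1495), with replicate 2 highest in both. The median log2 difference was 0.57 for the suprabasal list, opposite in sign to that of the Skint genes. The part of these shifts in the Skint values was not tested.

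**Figure D5:**
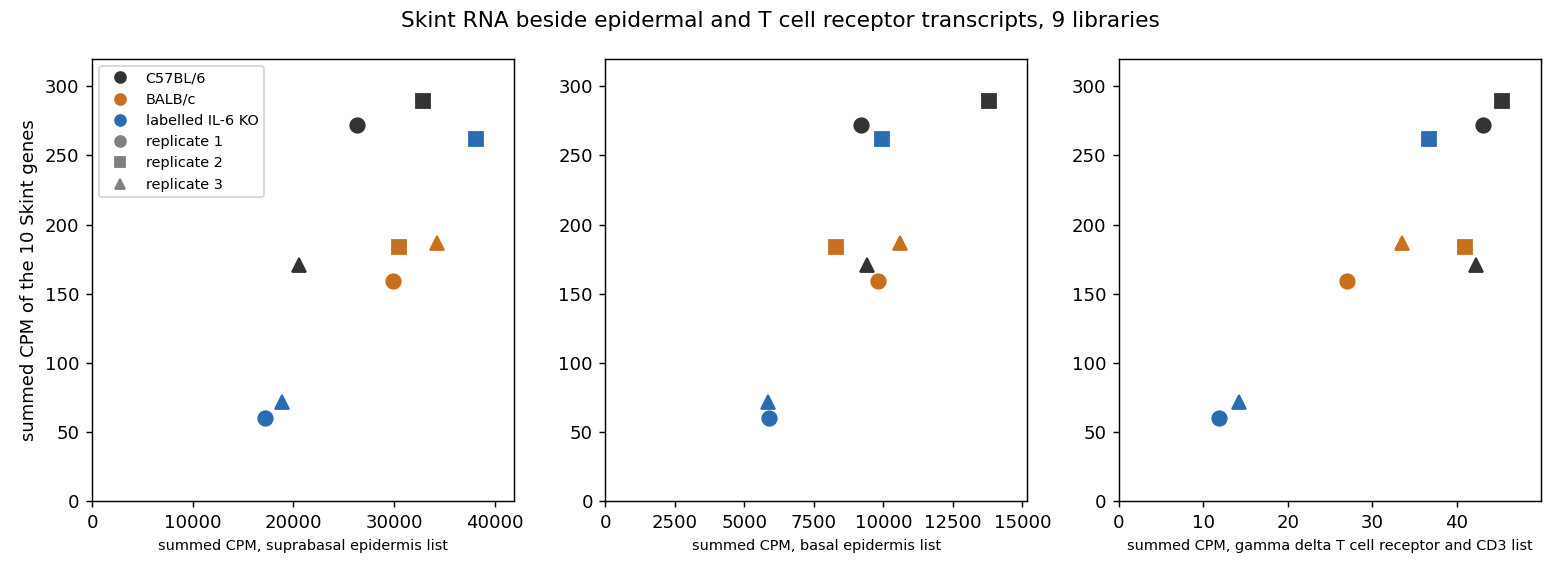
Summed CPM of the 10 members (vertical) against the summed CPM of suprabasal epidermis, basal epidermis and gamma delta T cell receptor and CD3 genes (horizontal), one point per library, on linear axes from 0. Replicates 1 and 3 of the IL-6 KO label, at 60.4 and 72.0 summed Skint CPM, are lowest on all axes, and replicate 2, at 261.9, lies above them on each and is highest of all libraries on the suprabasal axis.

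The T cells that Skint1 serves were read through 16 receptor and CD3 genes, of which 6 were tested and 6 had no read in any group. Their summed CPM was 42.2 to 45.4 in C57BL/6, 27.0 to 41.0 in BALB/c, and 11.9, 36.8 and 14.2 in replicates 1 to 3 under the IL-6 KO label. Cd3e, a signalling chain of the T cell receptor, was the only one of the 6 called under the IL-6 KO label. It was lower there (-1.51 ± 0.43, edgeR adjusted p = 0.0240), where 16.0% of all genes tested were called lower and 35.2% in either direction. That 1 of 6 is near the background. It lost its call when replicate 1 or 2 of C57BL/6, or replicate 1 or 3 of the IL-6 KO label, was left out, at adjusted p from 0.0539 to 0.0826. Trdc, the delta chain constant region, averaged 9.28 CPM in C57BL/6, 6.95 in BALB/c and 5.42 under the IL-6 KO label, with adjusted p of 0.608 and 0.179 for the 2 comparisons with C57BL/6. Without IL-6 KO replicate 2 it was called lower (log2 -1.45, adjusted p = 0.00588). Tcrg-C1, a gamma chain constant region, had 1.06, 6.91 and 0.847 CPM under the IL-6 KO label, again highest in replicate 2. Trdv4 had 29, 28 and 14 reads and Tcrg-V5 had 16, 8 and 8 reads over the libraries of C57BL/6, BALB/c and the IL-6 KO label, so the receptor segments of dendritic epidermal T cells were read in all 3 groups.

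Receptors, growth factors and products linked to dendritic epidermal T cells gave 3 genes higher and 4 lower among 27 tested under the IL-6 KO label (median log2 -0.34), where 35.2% of all genes were called. Zbtb16, known as a transcription factor of innate-like lymphocytes, fell by 2.23 ± 0.49 on the log2 scale (edgeR adjusted p = 0.00718). It stood at 66.3 ± 32.8 CPM in C57BL/6, far above Cd3e at 5.34 ± 1.15 CPM, and its cell source was not tested. Ccl27a, a keratinocyte chemokine that draws T cells to skin, fell by 1.38 ± 0.32 (adjusted p = 0.00893). Cxadr, the ligand of the costimulatory receptor JAML on these T cells, rose by 0.82 ± 0.19 (adjusted p = 0.00823). In BALB/c, 1 of the 27 was called: Ccl27a stood at 14.2 ± 2.77 CPM against 44.1 ± 13.1 in C57BL/6 (log2 -1.64 ± 0.31, adjusted p = 0.0252). It lost its call without any one C57BL/6 or BALB/c library, at adjusted p from 0.0540 to 0.111. Over all genes tested, 3.41% were called in either direction in BALB/c.

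Among 7 tested relatives of the butyrophilin and B7 families, Vtcn1, an inhibitory B7 ligand, was called higher under the IL-6 KO label (2.20 ± 0.58 on the log2 scale, edgeR adjusted p = 0.0171). It was the only one of the 7 called, beside 35.2% of all genes tested. It lost its call when replicate 1 or 3 of C57BL/6, or replicate 1 or 3 of the IL-6 KO label, was left out, at adjusted p from 0.0601 to 0.0657. In the epidermal lists, 1 of 14 basal genes was called higher and 5 lower under the IL-6 KO label, beside 19.2% and 16.0% of all genes tested. Cdh3 was the one higher (1.74 ± 0.30, edgeR adjusted p = 0.00255). Among those lower was Krt15, a keratin of basal and hair follicle stem cells (-2.33 ± 0.37, adjusted p = 0.00174). Of 27 suprabasal genes 9 were called higher and 1 lower, a share near that of all genes (35.2%), with Calml3 (1.73 ± 0.14, adjusted p = 4.3e-04) and Sfn (1.69 ± 0.23, adjusted p = 8.4e-04) among those higher. In BALB/c, Krt2, a keratin of the upper epidermis, was the only gene of these 2 lists called (4.98 ± 1.09, adjusted p = 0.0433), at 45.0 ± 37.7 CPM against 1.42 ± 0.453. It lost its call with a replicate block (adjusted p = 0.0510), with only the groups compared (0.0517), without IL-6 KO replicate 3 (0.0719), and without any one C57BL/6 library or replicate 2 or 3 of BALB/c (0.118 to 0.133).

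The genes nearest to each member in pattern were found by the root mean square difference of centred log2 CPM over the 9 libraries, which share depth and composition within each library. Skint8 lay nearest to Wfdc21 (0.146), Herc6 (0.147) and Krt10 (0.160), Krt10 being the main keratin of differentiating epidermis. Klk5, an epidermal protease (0.169), and Dmkn, a secreted epidermal protein (0.175), were among the 3 nearest to Skint6. Skint10 was nearest to Serpinb7 (0.252), Slitrk6 (0.260) and Vipr1 (0.285), Skint1 to Tprg (0.218), Atp6v1c2 (0.219) and Slc2a1 (0.235), and Skint5 to Mrgprb3 (0.248). Skint7 was nearest to H2-Q7, a class I histocompatibility gene (0.286), and Skint2 to Ncf4 (0.262). Skint3 and Skint9 were nearest to each other (0.408). Outside the family both were nearest to Gvin1 (0.488 and 0.632), an interferon-inducible GTPase, as Skint4 was to Trim12a (0.568). Skint4, Skint3 and Skint9 varied most over the libraries, with an SD of 2.58, 3.19 and 3.31 in log2 CPM, and Skint10 came next at 1.27. The distance includes the BALB/c and C57BL/6 libraries that chose the members, so nearness follows in part from those same values. Skint5 and Skint6, the pair with the most alike start windows, differed by 0.288.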

How the data were processed

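RNA of mouse skin was measured in 9 libraries, 3 per group by their labels. The members, the gene lists and the rule for named genes were chosen with earlier results of these data known. The deposited tables give raw counts of total, unique, intron and exon-exon reads per gene, per the file headers, and reads were mapped to GRCm38, per the submitters' processing notes; no aligner or strand setting is named in the sources used. The C57BL/6 replicate 1 file holds 3 stacked tables, of which the first was used. Total exon reads were analysed with edgeR 4.0.16 in R 4.3.3: filterByExpr (minimum count 10, minimum total 15), TMM scaling, 1 coefficient per group over all 9 libraries (6 residual degrees of freedom), the quasi-likelihood F test and Benjamini-Hochberg adjustment over 14415 genes at 0.05. The SE is the log2 difference divided by the square root of F. CPM uses the scaled library sizes, and CPM per kb divides by the deposited exon length. Before use, the fit was tested on simulated data. Replicates differed by more than counting error, at a chi-square of 4.57 to 50.6 per degree of freedom. Named were all 10 members, up to 4 called genes per list by p, the 3 genes nearest in pattern, genes of the Skint region with at least 10 reads, and Il6, Xist and Eif2s3y as label checks; 1 gene under this rule is not reported here. Further genes were named after their values were seen: Krt5, Krt10, Trdc, Tcrg-C1, Trdv4, Tcrg-V5, Gm12819, Rag2 and the genes with almost no BALB/c reads. Transcripts were compared with blastn 2.17.0. Alternatives were other scalings and filters, unique reads, a replicate block, DESeq2 1.42.0, fits of the compared groups only, and leaving out each library.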

Additional observations from a re-analysis of the deposited data

How the results depend on the processing

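Under the IL-6 KO label against C57BL/6, the count of members called was 2 and ranged from 1 to 8 when 1 library at a time was left out, and the count over all genes, 5068, ranged from 3238 to 6805. Of 160 values for single members, 143 kept direction and side of the threshold. Those that reversed concerned members that were not called. With a replicate block Skint1 was at -0.0090. When 1 library was left out, Skint1 ranged from -0.80 to 0.43, Skint2 from -0.33 to 0.34, Skint3 from -1.12 to 0.16 and Skint8 from -1.42 to 0.041. The lowest values came without IL-6 KO replicate 2. Skint1 (-0.049) and Skint2 (-0.028) also reversed without C57BL/6 replicate 3, Skint3 (0.038) without C57BL/6 replicate 2 and (0.11) without IL-6 KO replicate 3. The cause was not tested. For BALB/c against C57BL/6, 5 of 163 tested list genes were called. This became 3 with a replicate block and 20 with DESeq2, and ranged from 2 to 12 when 1 library was left out. Over all genes the count was 491, and it became 255 with the block and 1033 with DESeq2, ranging from 167 to 977 when 1 library was left out. With unique exon reads the family's mean summed CPM was higher in each group: 205.8 in place of 176.8 in BALB/c, 283.3 in place of 244.3 in C57BL/6 and 151.1 in place of 131.4 under the IL-6 KO label. Samples with the same replicate number correlated from -0.212 to 0.0617 in their deviations, so the numbers do not pair the libraries. Without TMM scaling the median log2 difference of all tested genes under the IL-6 KO label rose by 0.14. Depth limits Skint2 and Skint8 most, with 42 and 58 exon reads over the IL-6 KO-labelled libraries.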
